A study of Homo sapiens with 16 samples.

Results

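The genes of the proteasome, the protease that breaks down ubiquitin-tagged proteins, were followed in 4 human cancer cell lines treated with AU-15330. All genes whose symbol is PSM, then a letter from A to G and a number, were taken: 48 of the 35606 genes in the table. They were divided by role into 14 subunits of the core particle, 2 core subunits restricted to particular tissues, 3 immunoproteasome subunits, 17 subunits of the regulatory cap, 7 assembly factors and 5 activators or regulators. AU-15330 is a proteolysis targeting chimera, a molecule that brings its targets to an E3 ubiquitin ligase, and it degrades SMARCA2 and SMARCA4, the ATPases of the SWI/SNF chromatin remodeler, and the subunit PBRM1. Small cell lung cancer of the POU2F3 subtype (SCLC-P) was represented by NCI-H526 and NCI-H1048, and multiple myeloma by NCI-H929 and MM1.S. Each line was given the solvent DMSO alone or AU-15330 in DMSO at 1 µM, with 2 RNA-seq libraries per group and 16 in all. No library carried a genetic change made for the experiment, and a tumour type stands here for 2 established lines. Treatment lasted 24 h by the titles and 12 to 24 h by the treatment protocol, so the exact time is not certain. The study describes RNA-seq of both SCLC-P lines after 12 h, with 2 biological replicates, and also after 24 h, without a word on replicates. None of the labels says whether the 2 libraries of a group, in any line, came from separate cultures. A p-value here thus reflects only how far such libraries lie apart, which in any of the lines may be technical.

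The core particle is a barrel of stacked rings, alpha rings outside and beta rings inside, and some of the beta subunits carry the protease sites. The cap sits on the barrel, binds ubiquitin-tagged proteins, removes the ubiquitin and threads the protein in through a ring of ATPases. Cells exposed to interferon exchange the catalytic subunits for immunoproteasome subunits and raise the activators PSME1 and PSME2 with them. Plasma cells and myeloma cells make large amounts of secreted protein and are known for their sensitivity to proteasome inhibitors. The proteasome is also the machine that destroys the targets of a degrader such as AU-15330.

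The table gave expression scaled to library size, and depth was estimated from the smallest step between values at 12 to 43 M reads per library, lowest in NCI-H929 (12 to 14 M). The libraries carried the markers of their lines. POU2F3 stood at 534 to 1287 in the DMSO libraries of the SCLC-P lines and below 1 in those of the myeloma lines. The plasma cell factor IRF4 stood at 1456 to 1835 in the DMSO libraries of the myeloma lines and below 2 in those of the SCLC-P lines. MM1.S RNA was depleted of ribosomal RNA, while the other lines were selected for poly(A) RNA, and levels were therefore not tested between lines. Because AU-15330 removes proteins, the transcripts of its targets do not check the treatment. Those transcripts moved in both directions. In NCI-H526 SMARCA2 was higher, by 0.16 on the log2 scale, while SMARCA4 and PBRM1 were lower, at -0.22 and -0.21. In MM1.S SMARCA2 was lower, at -0.35, and in NCI-H929 SMARCA4 was lower, at -0.14. The SMARCA4 change in NCI-H929 turned to 0.140 under quantile normalization and to 0.084 under total-count scaling, and the MM1.S call of SMARCA2 was lost under both. None of the 3 passed in NCI-H1048 (adjusted p = 0.91 for SMARCA2, 0.76 for SMARCA4 and 0.051 for PBRM1), though PBRM1, at -0.27, passed under some alternatives, total-count scaling (adjusted p = 0.042) among them.

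Proteasome genes fell in both myeloma lines, and most core and cap genes rose modestly in both SCLC-P lines. Of the 46 genes with enough expression to test, 44 were lower with AU-15330 in NCI-H929 and 0 were higher, against 37.6% of all genes called lower and 38.4% called higher there. In MM1.S, 45 were lower and 0 were higher, against 40.2% and 33.9% of all genes. In NCI-H526, 29 were higher and 2 (PSME1 and PSMB8) were lower, where 29% of all genes were called higher and 29.8% lower. In NCI-H1048, 23 were higher and 2 (PSME1 and PSME3) were lower, where 16.9% and 18.2% of all genes were called. The test was limma with a mean-variance trend, called at an adjusted p under 0.05. At an unadjusted p under 0.05, 0 members were higher in either myeloma line, and limma-voom called 1 higher in NCI-H929 and 0 in MM1.S.

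The median change of the 46 genes was -0.77 in NCI-H929 and -0.77 in MM1.S on the log2 scale, beside 0.04 and -0.03 over all genes tested. It was 0.15 in NCI-H526 and 0.25 in NCI-H1048, beside -0.00 and 0.01 over all genes. All values are relative to the library, so less of these RNAs and more of other RNAs cannot be told apart, and in such bulk samples fewer cells of a kind and less RNA per cell cannot be told apart either.

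**Figure D1:**
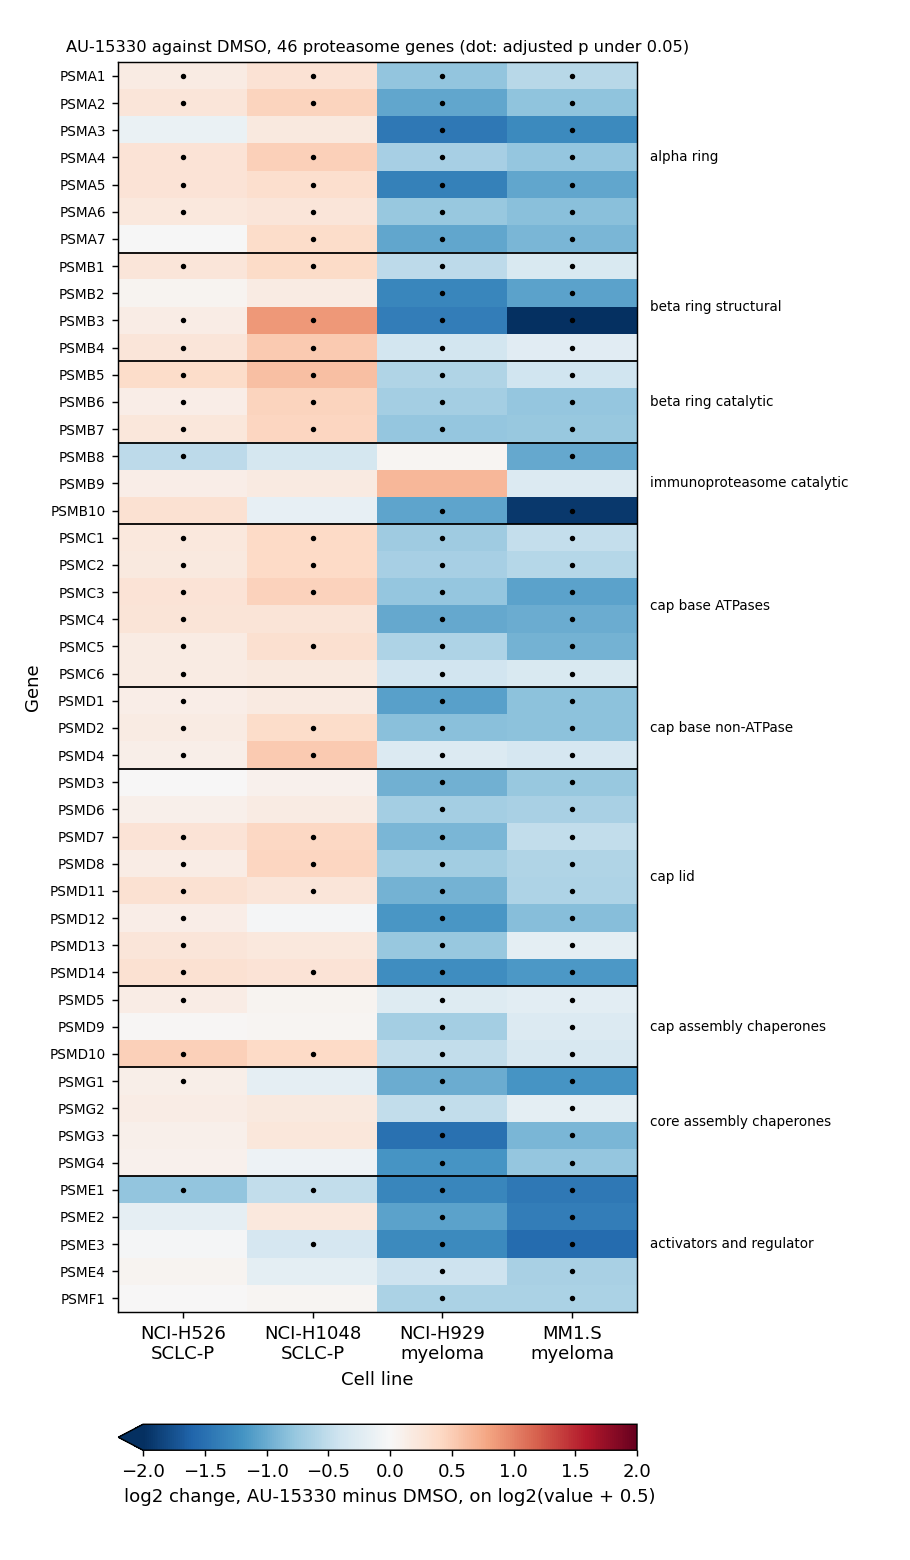
The heat map shows the log2 change of each of the 46 tested proteasome genes (rows, grouped by role) in each cell line (columns), with red for higher and blue for lower with AU-15330, and a dot where the adjusted p was under 0.05. In both myeloma columns the same 44 genes are blue with a dot, and in the SCLC-P columns most core and cap genes are pale red while PSME1 is blue.

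The tumour types also differed in the size of the changes. At a change of at least 1.5-fold, 36 members were lower in NCI-H929 and 31 in MM1.S, against 23.4% and 25.6% of all genes, and 0 were higher in either, against 25.9% and 20.1%. By the same measure 0 members were higher in NCI-H526 and 2 in NCI-H1048, PSMB3 and PSMB5, against 5.82% and 4.12% of all genes, and 1 (PSME1) was lower in NCI-H526 and 0 in NCI-H1048, against 12.1% and 8.87%. Among the 46 tested members, both treated libraries lay below both DMSO libraries for 44 in NCI-H929 and for 45 in MM1.S, as for 42.7% and 45.5% of all genes, and above them for 0 in either line, as for 45.1% and 41.4%. They lay above for 34 of them in each SCLC-P line, as for 39.6% of all genes in NCI-H526 and 35.4% in NCI-H1048, and below for 3 and 5, as for 39.7% and 32.7%. The SCLC-P counts leaned on single libraries. Without either DMSO library of NCI-H526 the number of members called higher was 19. Without the first DMSO library of NCI-H1048 it was 5, and without the second it was 17.

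Lower in both myeloma lines and higher in both SCLC-P lines was the pattern of 22 members, and 2.6% of the 11059 genes tested in all 4 lines had it. Higher in both SCLC-P lines were 22 members, as were 10.5% of all genes. Lower in both myeloma lines were 44 members, as were 32.5% of all genes. With 44 of the 46 tested members lower there, the 22 could hardly lie outside them. The pattern covered 5 alpha ring genes, 6 beta ring genes, the ATPases PSMC1, PSMC2, PSMC3 and PSMC5, 6 other cap genes and the assembly factor PSMD10. A further 12 members were lower in both myeloma lines and passed the test in neither SCLC-P line, among them 3 of the 4 core assembly factors. PSME1 was the only member called lower in all 4 lines, and PSMB9 was the only tested member that passed in none. The share of all genes called lower in all 4 lines was not taken, here or for UBE3C and NLRC5 below. PSMA8 and PSMB11, the tissue-restricted core subunits, were near 0 and not tested, with their highest values in any library at 0.0751 and 0.0976.

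**Figure D2:**
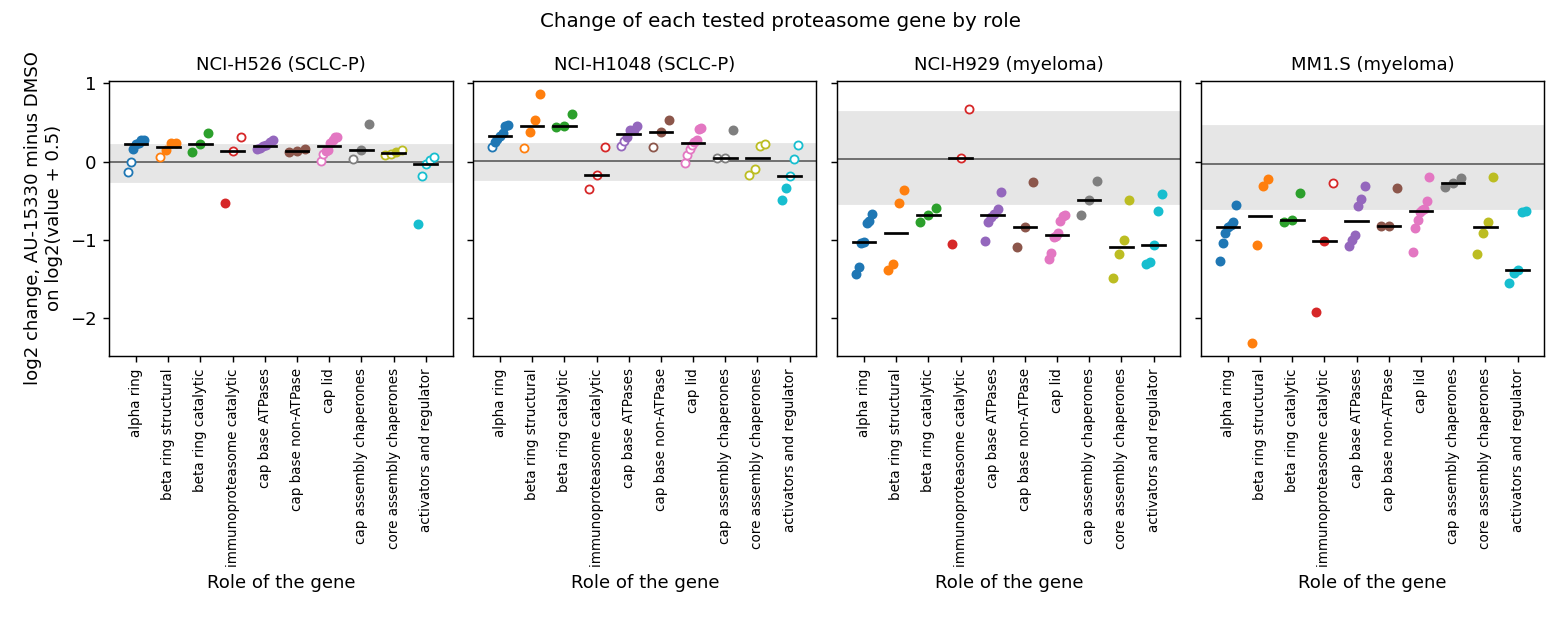
Each panel is a cell line and each point a tested proteasome gene, placed by role (x axis) and by its log2 change with AU-15330 (y axis); filled points passed the test, black bars are medians, and the grey line and band give the median and the middle 50% of all genes tested. The medians of the core and cap groups lie below the band in both myeloma lines, near its upper edge in NCI-H526 and above it in NCI-H1048.

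The middle 50% of the changes was narrower for the 31 genes of the core particle and the cap than for all genes. All 31 were lower in both myeloma lines, with a median fold decrease of 1.71 in NCI-H929 and 1.70 in MM1.S. In NCI-H526, 26 were higher and 0 lower with a median fold increase of 1.15, and in NCI-H1048, 22 were higher and 0 lower with a median fold increase of 1.29. The shares of all genes were 37.6% lower in NCI-H929, 40.2% lower in MM1.S, 29% higher in NCI-H526 and 16.9% higher in NCI-H1048. The middle 50% of the log2 changes of the 31 spanned 0.11 in NCI-H526, 0.21 in NCI-H1048, 0.36 in NCI-H929 and 0.40 in MM1.S. Those of all genes spanned 0.46, 0.45, 1.17 and 1.06. No test was made of these spans. All genes include those with a mean down to 1, while the 31 had DMSO means of 29.0 to 515. No set of genes of like level was compared.

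Summed over all members, the level went from 6299 and 6531 in the DMSO libraries of NCI-H929 to 3661 and 3718 in the treated ones, which is 57.5% of the DMSO mean. In MM1.S it went from 4917 and 5047 to 2964 and 3061, or 60.5%. In NCI-H526 it went from 6295 and 6352 to 6765 and 7351, or 111.6%, and in NCI-H1048 from 5184 and 5543 to 6771 and 6541, or 124.1%. The treated and DMSO sums did not overlap in any line. The core and cap sums had the same pattern, at 112.3% and 113.9% in NCI-H526, 133.1% and 125.2% in NCI-H1048, 57.3% and 59.3% in NCI-H929, and 61.7% and 62.1% in MM1.S. The sum of the 5 activators and regulators stood at 99.1% in NCI-H526, where its treated and DMSO libraries overlapped, at 86.5% in NCI-H1048 and at 48.5% in each myeloma line.

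**Figure D3:**
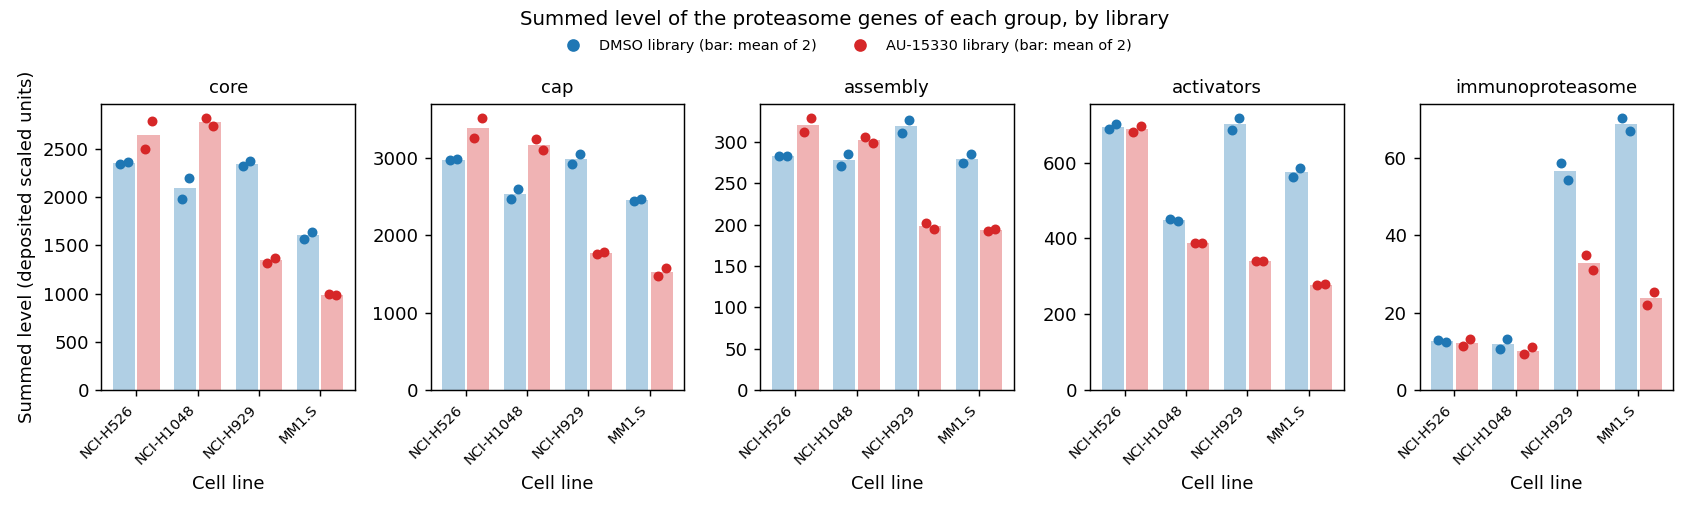
Each panel sums the deposited values of a group of proteasome genes for every library (points, blue for DMSO and red for AU-15330; bars are means of 2 libraries, from 0) in the 4 lines. Core and cap sums are higher with AU-15330 in both SCLC-P lines and lower in both myeloma lines, and the activator sum is at 48.5% of DMSO in each myeloma line and not above DMSO in the SCLC-P lines.

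The promoters of 4 members are shown because these members stand for different patterns: PSMB3 and PSMD14 were higher in both SCLC-P lines and lower in both myeloma lines, PSMB10 passed the test, as lower, in the myeloma lines alone, and PSME1 was lower in all 4 lines. Each stretch is the 250 bases before the RefSeq start of the gene on GRCh38.p14, 5′ to 3′ on the strand of the gene. Capitals mark the matches, on either strand, to 4 motifs: the CCAAT box (CCAAT), the core of the antioxidant response element bound by NFE2L1 and NFE2L2 (TGACNNNGC), the core of the interferon-stimulated response element (GAAA and GAAA with 2 bases between them) and the GC box (GGGCGG).
PSMB3: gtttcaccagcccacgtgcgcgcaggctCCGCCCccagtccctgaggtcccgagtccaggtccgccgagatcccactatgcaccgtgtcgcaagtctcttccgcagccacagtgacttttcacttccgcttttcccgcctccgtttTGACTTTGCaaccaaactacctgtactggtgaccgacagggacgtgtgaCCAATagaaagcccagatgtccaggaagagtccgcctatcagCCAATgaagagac
PSMD14: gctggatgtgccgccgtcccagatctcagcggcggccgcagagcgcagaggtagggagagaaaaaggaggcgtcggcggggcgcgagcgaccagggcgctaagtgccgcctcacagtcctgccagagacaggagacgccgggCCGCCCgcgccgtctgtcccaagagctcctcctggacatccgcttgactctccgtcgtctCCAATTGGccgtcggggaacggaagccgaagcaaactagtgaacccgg
PSMB10: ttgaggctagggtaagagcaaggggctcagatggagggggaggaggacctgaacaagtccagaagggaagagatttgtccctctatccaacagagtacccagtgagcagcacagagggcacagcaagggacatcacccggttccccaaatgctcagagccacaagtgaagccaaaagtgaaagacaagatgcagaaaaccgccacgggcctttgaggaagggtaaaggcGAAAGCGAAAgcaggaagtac
PSME1: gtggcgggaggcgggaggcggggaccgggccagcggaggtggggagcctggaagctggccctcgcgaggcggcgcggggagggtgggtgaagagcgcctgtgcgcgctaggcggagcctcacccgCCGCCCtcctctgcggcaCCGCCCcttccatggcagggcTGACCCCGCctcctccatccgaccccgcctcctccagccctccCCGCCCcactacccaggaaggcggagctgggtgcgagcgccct
The PSMB3 stretch lies on the plus strand of chromosome 17 (chr17:38752491-38752740) and holds CCAAT boxes 55 and 13 bases before the start, an antioxidant response element core at 104 bases and a GC box at 222 bases. The PSMD14 stretch is on the plus strand of chromosome 2 (chr2:161308175-161308424), with CCAAT boxes that overlap on opposite strands at 48 and 45 bases and a GC box at 108 bases. The PSMB10 stretch is on the minus strand of chromosome 16 (chr16:67936851-67937100) and holds an interferon-stimulated response element core 21 bases before the start. The PSME1 stretch is on the plus strand of chromosome 14 (chr14:24135944-24136193), with an antioxidant response element core at 86 bases and GC boxes at 125, 107 and 43 bases.

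Windows of 300 bases, from 250 before to 50 after a RefSeq start, were at hand for 42 of the 48 members, 51 windows in all. The antioxidant response element core was in 29.4% of them and in 13.3% of all 35116 windows. The interferon-stimulated response element core was in 13.7% of member windows and 3.57% of all, and its 7 genes were PSMA4, PSMB4, PSMB8, PSMB10, PSME1, PSME2 and PSMG4. The GC box was in 68.6% against 45%, the CCAAT box in 39.2% against 34.6%, and the gamma-activated site TTCNNNGAA in 15.7% against 7.66%. The octamer ATGCAAAT, the motif of POU2F factors, was in 0 of the member windows and 1.77% of all. A match describes the letters of these windows and says nothing of binding in these cells.

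The alpha ring, whose 7 subunits gate the entry to the barrel, was lower throughout in the myeloma lines. All 7 genes passed there, with changes from -1.44 to -0.67 on the log2 scale in NCI-H929 and from -1.27 to -0.55 in MM1.S. PSMA3 had the largest fall of the 7 in both. Its values went from 151 and 143 in DMSO to 53.3 and 54.5 with AU-15330 in NCI-H929, a change of -1.44 ± 0.05 (SE, n = 2 libraries per group here and throughout, limma adjusted p = 1.3e-11). In MM1.S they went from 62.0 and 68.5 to 27.5 and 26.1, a change of -1.27 ± 0.08 (adjusted p = 7.5e-08). In the SCLC-P lines PSMA3 did not pass, at 133 and 140.3 against 116 and 134 in NCI-H526 and 123 and 141 against 146 and 155 in NCI-H1048. Of the other alpha genes, 5 rose in NCI-H526 and 6 in NCI-H1048. The shares of all genes were 37.6% lower in NCI-H929, 40.2% lower in MM1.S, 29% higher in NCI-H526 and 16.9% higher in NCI-H1048. PSMA4 rose by 0.28 and 0.47 in the SCLC-P lines in that order, and PSMA5 by 0.28 and 0.33, while PSMA5 fell by 1.35 in NCI-H929 and 1.04 in MM1.S. Without the first DMSO library of NCI-H1048 none of these 6 calls was kept there, with adjusted p from 0.064 for PSMA4 to 0.49 for PSMA6.

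The beta ring has 4 subunits without a protease site, PSMB1 to PSMB4. Of these, PSMB3 rose most of all members in NCI-H1048, from 72.9 and 78.4 to 139.6 and 137, a change of 0.87 ± 0.10 (SE, adjusted p = 8.6e-07). In NCI-H526 it went from 80.8 and 80.6 to 88.0 and 90.3, a change of 0.14 ± 0.04 (adjusted p = 0.013, and 0.11 and 0.12 without the first and second DMSO library). In NCI-H929 it fell from 99.4 and 96.9 to 41.7 and 33.2, by 1.39 ± 0.09 (adjusted p = 3.3e-09). In MM1.S it went from 57.1 and 57.3 to 25.6 and 4.62, so that both treated libraries lay below DMSO but far from each other. The fitted MM1.S change was -2.32 ± 0.52 (adjusted p = 0.002), and it was -1.143 without the second treated library and -3.495 without the first. The MM1.S call was lost without either DMSO library, at adjusted p of 0.077 and 0.08. In a single fit of all 16 libraries, which shares this spread, the SCLC-P calls of PSMB3 were lost as well, at adjusted p of 0.83 and 0.14.

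PSMB2 fell by 1.31 in NCI-H929 and 1.07 in MM1.S and did not pass in the SCLC-P lines. PSMB4 was the most abundant core transcript per kilobase in all 4 lines, at 263 to 561 per kilobase in DMSO. Its values rose from 316 and 315 to 355 and 390.4 in NCI-H526 and from 234 and 248 to 362 and 335 in NCI-H1048, by 0.24 and 0.53. In NCI-H929 its values were 498 and 531 in DMSO and 390.1 and 411 with AU-15330, a change of -0.36, and in MM1.S 288 and 305 and 254 and 254, a change of -0.22. Both myeloma changes passed the test but turned to 0.050 and 0.030 under quantile normalization and, in MM1.S, to 0.014 under total-count scaling.

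The catalytic subunits of the constitutive proteasome all rose in both SCLC-P lines and fell in both myeloma lines. PSMB5, which carries the chymotrypsin-like site that myeloma drugs block, rose from 90.7 and 93.8 to 116 and 123 in NCI-H526, by 0.37 ± 0.04 (SE, adjusted p = 6e-05). In NCI-H1048 it rose from 118 and 125 to 188 and 182, by 0.61 ± 0.09 (adjusted p = 5.4e-05). It fell from 64.0 and 65.9 to 43.9 and 41.7 in NCI-H929, by 0.60 ± 0.06 (adjusted p = 1.2e-06). In MM1.S it fell from 29.3 and 28.8 to 20.2 and 23.7, by 0.40 ± 0.09 (adjusted p = 0.0024), a call lost under total-count scaling (change -0.169, adjusted p = 0.11). The treated libraries did not overlap the DMSO libraries in any line.

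PSMB6, with the caspase-like site, went from 74.5 and 74.1 to 81.6 and 80.8 in NCI-H526 and from 86.0 and 90.5 to 128 and 114 in NCI-H1048. In the myeloma lines it went from 76.2 and 79.9 to 48.4 and 48.6 in NCI-H929 and from 89.5 and 90.9 to 52.7 and 53.0 in MM1.S. The changes were 0.13, 0.45, -0.68 and -0.77 in that order of lines, and all passed the test with no overlap between treated and DMSO libraries. PSMB7, with the trypsin-like site, went from 102 and 100.3 to 112 and 126 in NCI-H526 and from 119 and 138 to 179.9 and 169 in NCI-H1048. It went from 128 and 123 to 74.9 and 72.0 in NCI-H929 and from 107 and 112 to 64.4 and 65.1 in MM1.S. Its changes were 0.23, 0.44, -0.77 and -0.75 in the same order, and all passed, again with no overlap. The PSMB6 call in NCI-H526 was lost without either DMSO library (adjusted p = 0.16 and 0.18), and those of PSMB6 and PSMB7 in NCI-H1048 were lost without its first DMSO library (adjusted p = 0.058 and 0.13).

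**Figure D4:**
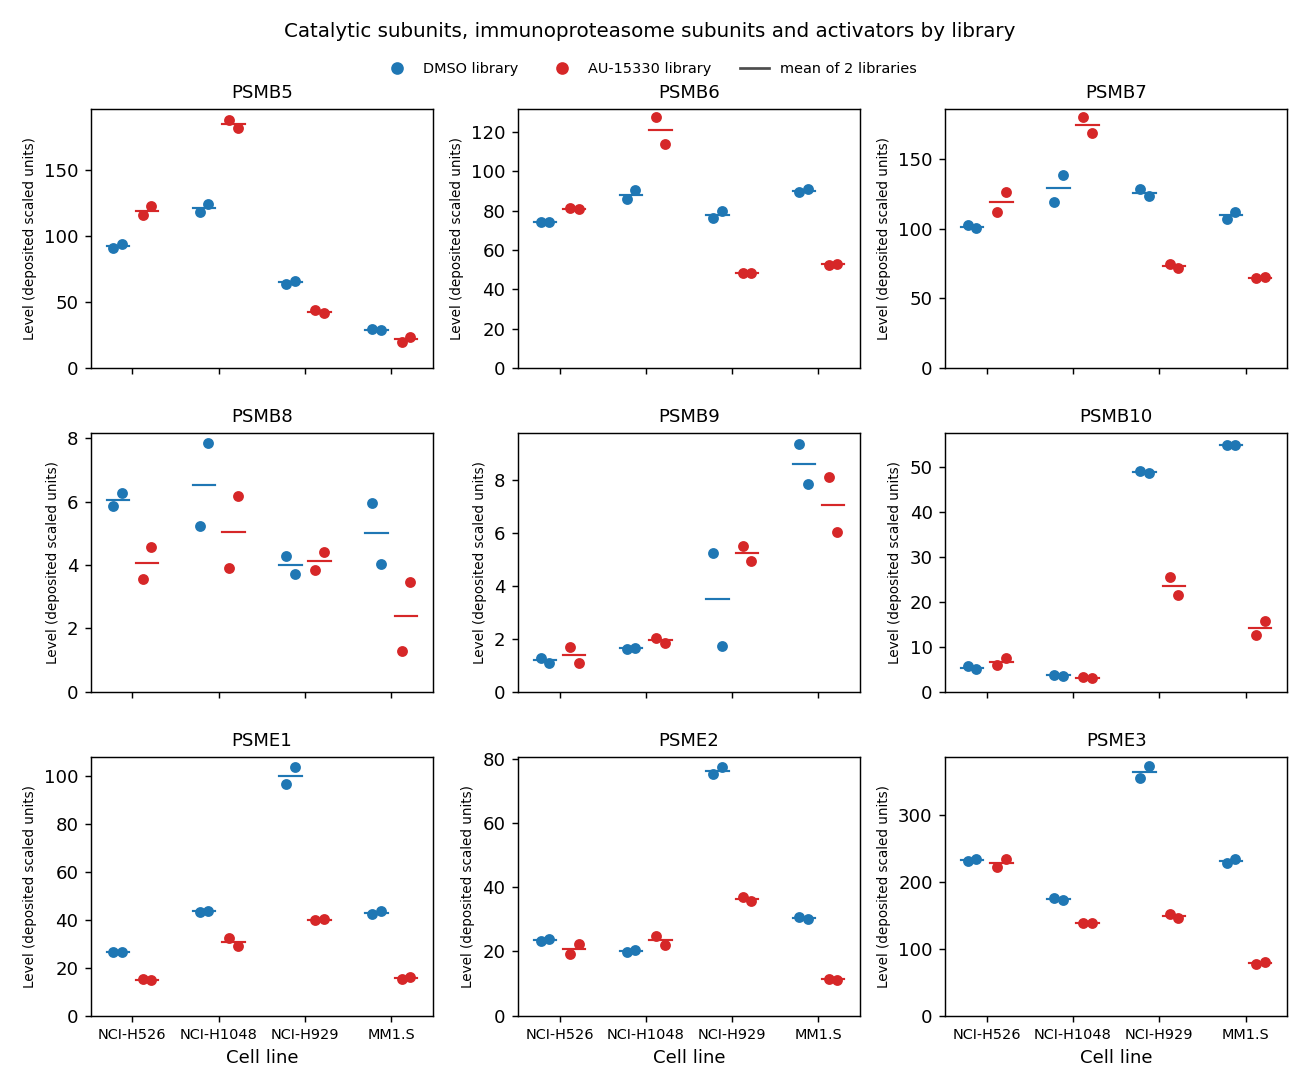
Each panel is a gene and each point a library, with the deposited scaled value on a y axis from 0, blue for DMSO, red for AU-15330 and a bar for the mean of 2 libraries. PSMB5, PSMB6 and PSMB7 are higher with AU-15330 in the SCLC-P lines and lower in the myeloma lines, PSMB10, PSME2 and PSME3 are lower with AU-15330 in both myeloma lines, and PSME1 is lower in all 4.

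The base of the cap holds the 6 ATPases that unfold proteins and the subunits PSMD1, PSMD2 and PSMD4. The ATPases were lower in both myeloma lines for 6 of 6, with changes from -1.02 to -0.39 in NCI-H929 and from -1.08 to -0.31 in MM1.S. They were higher for 6 of 6 in NCI-H526 and 4 of 6 in NCI-H1048. The shares of all genes were 37.6% lower in NCI-H929, 40.2% lower in MM1.S, 29% higher in NCI-H526 and 16.9% higher in NCI-H1048. PSMC4 fell by 1.02 in NCI-H929 and 1.00 in MM1.S, and PSMC3 by 0.77 and 1.08. PSMC3 rose by 0.27 in NCI-H526 and 0.45 in NCI-H1048.

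PSMD4, a ubiquitin receptor, had the smallest change of the cap genes in NCI-H929. It went from 383 and 404 to 339 and 315 there and from 202 and 206 to 152 and 171 in MM1.S, changes of -0.27 and -0.34. These were 0.076 and -0.142 under quantile normalization and -0.045 and -0.103 under total-count scaling, none of which passed. PSMD4 went from 324 and 328 to 340.1 and 369 in NCI-H526, a change of 0.12 (adjusted p = 0.048). That call was lost without the first or second DMSO library or the second treated library, at adjusted p of 0.29, 0.21 and 0.071. In NCI-H1048 PSMD4 rose from 176 and 177 to 265 and 246, by 0.53 (adjusted p = 0.00022). PSMD1, the large scaffold, fell from 188 and 195 to 88.0 and 91.2 in NCI-H929 and from 197 and 207 to 113 and 115 in MM1.S, by 1.09 and 0.82. It went from 266 and 272 to 287 and 305 in NCI-H526, a change of 0.14 (adjusted p = 0.021, and 0.23 and 0.11 without the first and second DMSO library). In NCI-H1048 it stood at 191 and 209 against 225 and 229.9, a change of 0.19 that did not pass (adjusted p = 0.13).

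The lid of the cap holds the deubiquitinase PSMD14, its partner PSMD7 and 6 further subunits. All 8 genes were lower in both myeloma lines, 6 were higher in NCI-H526 and 4 in NCI-H1048. The shares of all genes were 37.6% lower in NCI-H929, 40.2% lower in MM1.S, 29% higher in NCI-H526 and 16.9% higher in NCI-H1048. PSMD14 had the largest fall of the 8 in both myeloma lines. It went from 154 and 160.3 to 64.2 and 67.5 in NCI-H929 and from 137 and 145 to 64.3 and 62.2 in MM1.S. The changes were -1.25 ± 0.05 (SE, adjusted p = 4.2e-11) and -1.15 ± 0.06 (adjusted p = 2.6e-08). In NCI-H526 PSMD14 rose from 126 and 129 to 147 and 170.0, by 0.31 ± 0.06 (adjusted p = 0.0015). In NCI-H1048 it went from 132 and 148 to 166 and 171, a change of 0.27 ± 0.10 (adjusted p = 0.035, and 0.46 and 0.096 without the first and second DMSO library).

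PSMD11, a structural lid subunit, rose from 172 and 175 to 207 and 223 in NCI-H526, by 0.31 ± 0.04 (SE, adjusted p = 0.0002). In NCI-H1048 it went from 175 and 175 to 209.8 and 205, a change of 0.25 (adjusted p = 0.044, and 0.3 and 0.26 without the first and second DMSO library). In the myeloma lines it fell from 191 and 188 to 93.2 and 103 (NCI-H929) and from 236 and 246 to 159.5 and 154 (MM1.S), by 0.95 and 0.62. PSMD7 fell from 190.0 and 197 to 101 and 104 in NCI-H929 and from 65.3 and 70.5 to 46.4 and 49.4 in MM1.S, by 0.92 and 0.50. It rose from 85.0 and 82.6 to 95.4 and 109 in NCI-H526 and from 66.8 and 74.6 to 94.5 and 94.2 in NCI-H1048, by 0.28 and 0.42, the latter lost without the first DMSO library (adjusted p = 0.16). PSMD13 fell from 148 and 171 to 98.0 and 89.9 in NCI-H929, by 0.76. In MM1.S its values were 131 and 130.3 in DMSO and 117 and 111 with AU-15330, a change of -0.20 that was lost without the second treated library (adjusted p = 0.06), was -0.006 under quantile normalization and turned to 0.040 under total-count scaling. In the SCLC-P lines PSMD13 went from 162 and 164 to 183 and 201 in NCI-H526, a rise of 0.24, and from 137 and 139 to 168 and 154 in NCI-H1048, which did not pass.

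Assembly factors escort subunits until the particle is built and are not part of the finished proteasome. Of the 7, all were lower in both myeloma lines, 3 (PSMD5, PSMD10 and PSMG1) were higher in NCI-H526 and 1 (PSMD10) in NCI-H1048. The last count was near the background of 16.9% of all genes higher in NCI-H1048, and the 3 in NCI-H526 stood against 29%. The core chaperones PSMG1 to PSMG4 changed by -1.49 to -0.49 in NCI-H929 and by -1.19 to -0.20 in MM1.S, and the cap chaperones PSMD5, PSMD9 and PSMD10 by -0.68 to -0.25 and by -0.32 to -0.21. PSMG3 had the largest fall of all members in NCI-H929, from 24.4 and 21.2 to 7.51 and 8.09, or -1.49 ± 0.13 (SE, adjusted p = 1.4e-07). In MM1.S it fell from 19.9 and 23.1 to 9.40 and 13.3, by 0.91 ± 0.15 (adjusted p = 0.0002). In the SCLC-P lines PSMG3 did not pass, at 34.0 and 34.4 against 35.5 and 37.8 in NCI-H526 and 29.8 and 31.9 against 39.8 and 32.8 in NCI-H1048.

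PSMD10, also called gankyrin, had the largest rise of all members in NCI-H526, from 45.8 and 44.8 to 59.6 and 67.8, or 0.48 ± 0.06 (SE, adjusted p = 8.8e-05). In NCI-H1048 it went from 38.5 and 44.2 to 53.7 and 55.9, a change of 0.41 ± 0.11 (adjusted p = 0.0054, and 0.23 without the first DMSO library). In the myeloma lines PSMD10 went from 48.1 and 52.6 to 35.9 and 35.5 in NCI-H929, a change of -0.49, and from 31.5 and 33.1 to 25.6 and 25.9 in MM1.S, a change of -0.32 that was -0.092 and did not pass under total-count scaling. The MM1.S changes of PSMD5 and PSMG2, -0.21 and -0.20, turned to 0.020 and 0.033 under total-count scaling, and the NCI-H929 change of PSMD5, -0.25, was lost without the second treated library (adjusted p = 0.17).

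Activators open the barrel without the cap. PSME1, which forms a ring with PSME2, was lower in every line. It went from 26.4 and 26.6 to 15.2 and 14.9 in NCI-H526, a change of -0.79 ± 0.06 (SE, adjusted p = 3.6e-06). In NCI-H1048 it went from 43.1 and 43.9 to 32.6 and 29.1, a change of -0.49 ± 0.11 (adjusted p = 0.0013). In NCI-H929 it went from 96.6 and 104 to 40.0 and 40.2, a change of -1.31 ± 0.06 (adjusted p = 1.5e-10). In MM1.S it went from 42.4 and 43.5 to 15.1 and 16.1, a change of -1.43 ± 0.08 (adjusted p = 4.3e-08). No treated library overlapped a DMSO library in any of the 4 lines.

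PSME2 lies close to PSME1 on chromosome 14 (hg38, 24143362 to 24147570 on the minus strand, with PSME1 at 24136163 to 24138967 on the plus strand). It fell from 75.3 and 77.4 to 36.8 and 35.7 in NCI-H929 and from 30.7 and 30.2 to 11.5 and 11.2 in MM1.S, by 1.06 and 1.38. In the SCLC-P lines it did not pass, at 23.3 and 23.7 against 19.2 and 22.2 in NCI-H526 and 19.9 and 20.4 against 24.8 and 22.1 in NCI-H1048. PSME3, the nuclear activator, fell from 355 and 373 to 153 and 147 in NCI-H929, by 1.28 ± 0.04 (SE, adjusted p = 4.4e-12). In MM1.S it fell from 228 and 235 to 77.6 and 80.1, by 1.54 ± 0.05 (adjusted p = 1.8e-09). In NCI-H1048 it went from 176 and 173 to 138 and 139, a change of -0.33 ± 0.09 (adjusted p = 0.0087, and 0.15 and 0.11 without the first and second DMSO library). In NCI-H526 it stood at 231 and 234 against 222 and 234, a change of -0.03 ± 0.04 that did not pass (adjusted p = 0.58). PSME4 and the regulator PSMF1 fell by 0.41 to 0.65 in the myeloma lines and did not pass in the SCLC-P lines.

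The immunoproteasome subunits did not all move alike. PSMB10, which takes the place of PSMB7, fell from 49.1 and 48.7 to 25.4 and 21.5 in NCI-H929, by 1.05 ± 0.09 (SE, adjusted p = 1e-07). In MM1.S it fell from 55.0 and 54.9 to 12.6 and 15.8, by 1.92 ± 0.10 (adjusted p = 3e-08). In the SCLC-P lines it was below 8 in every library and did not pass, at 5.68 and 4.97 against 6.00 and 7.47 in NCI-H526 and 3.65 and 3.62 against 3.29 and 3.07 in NCI-H1048. Per length, the ratio of PSMB10 to PSMB7 went from 0.386 and 0.398 in DMSO to 0.342 and 0.301 with AU-15330 in NCI-H929, and from 0.518 and 0.493 to 0.197 and 0.244 in MM1.S. In both myeloma lines, and in NCI-H1048, the treated ratios lay below the DMSO ratios. The ratio was 0.0559 and 0.0499 against 0.0539 and 0.0597 in NCI-H526, where the groups overlapped, and 0.0308 and 0.0264 against 0.0184 and 0.0184 in NCI-H1048. In the myeloma lines the RNA ratios of the other pairs did not follow that of PSMB10 to PSMB7. In NCI-H1048 the treated ratios of every pair lay below the DMSO ratios. The ratio of PSMB9 to PSMB6 went from 0.0559 and 0.0177 to 0.0925 and 0.0825 in NCI-H929 and from 0.0849 and 0.07 to 0.125 and 0.0924 in MM1.S, higher in the treated libraries of both with no overlap. It was 0.0141 and 0.0121 against 0.0168 and 0.0109 in NCI-H526, with overlap. In NCI-H1048 it was 0.0153 and 0.015 against 0.0129 and 0.0132, lower with no overlap. The ratio of PSMB8 to PSMB5 went from 0.0623 and 0.0523 to 0.0815 and 0.0981 in NCI-H929, higher with no overlap, and was 0.189 and 0.13 against 0.0599 and 0.136 in MM1.S, with overlap. It went from 0.0601 and 0.0621 to 0.0285 and 0.0347 in NCI-H526 and from 0.0412 and 0.0585 to 0.0193 and 0.0316 in NCI-H1048, lower in both with no overlap. These ratios are descriptions with no test. In MM1.S PSMB9 itself did not rise, with a change of -0.27 that did not pass, while PSMB6 changed by -0.77. In NCI-H929 PSMB9 was low and uneven in DMSO, at 5.26 and 1.75. The values of PSMB8 and PSMB9 carry the further limit of their region given below.

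PSMB8, which takes the place of PSMB5, was called lower in NCI-H526, from 5.87 and 6.27 to 3.56 and 4.59, a change of -0.53 (adjusted p = 0.0068, and 0.056 under quantile normalization). In MM1.S it went from 5.97 and 4.03 to 1.30 and 3.47, a change of -1.02 (adjusted p = 0.013). The MM1.S call was lost without the first or second DMSO library, at adjusted p of 0.22 and 0.069. PSMB8 stood at 5.23 and 7.85 against 3.90 and 6.18 in NCI-H1048 and 4.30 and 3.71 against 3.85 and 4.40 in NCI-H929, with the groups overlapping in both. PSMB9, which takes the place of PSMB6, passed in no line. It stood at 1.29 and 1.11 against 1.69 and 1.08 in NCI-H526 and 1.63 and 1.68 against 2.04 and 1.86 in NCI-H1048. It stood at 5.26 and 1.75 against 5.52 and 4.95 in NCI-H929, where the DMSO libraries lay far apart, and 9.38 and 7.85 against 8.14 and 6.04 in MM1.S. The NCI-H929 change of PSMB9, 0.67 (adjusted p = 0.083), was 1.349 (adjusted p = 0.00038) without the first DMSO library.

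PSMB8 and PSMB9 have gene spans that overlap on opposite strands in the MHC region of chromosome 6 (hg38, 32840717 to 32844679 on the minus strand and 32844136 to 32859851 on the plus strand). The values of other genes of this region were unequal between lines, and not in the same way. DDX39B, a widely used RNA helicase gene of that region, was listed at 424 and 418 in the DMSO libraries of NCI-H526 and 128 and 136 in NCI-H929 but at 4.93 and 5.15 in NCI-H1048 and 2.08 and 1.56 in MM1.S. It was chosen after its values were seen. Whether reads of PSMB8 and PSMB9 went to other entries was not tested.

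Gene models could also share reads for other members. The reference transcripts of 8 members overlapped exons of another gene over more than 5% of their length: PSMA1, PSMA2, PSMA6, PSMB10, PSMC1, PSMC5, PSMD7 and PSMD9. The same-strand gene that overlaps PSMA2 was listed at 7.92 to 33.7 over the libraries, that at PSMB10 at 0.639 to 11.4, the opposite-strand neighbour of PSMC1, NRDE2, at 25.5 to 38.8, and that of PSMC5, FTSJ3, at 22.1 to 208. The values of these 8 members are uncertain to that extent. Pseudogene entries of the members, 32 in all, held 0.024% to 0.179% of the summed member level.

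Responses were then compared between the lines of each tumour type. Between the SCLC-P lines, 38 of the 46 members did not differ past the test. The change of 6 was lower in NCI-H526 than in NCI-H1048 and that of 2 higher, against 15.5% and 13.4% of all genes. Both counts were below those shares, so the members named next do not set the proteasome genes apart from other genes. The median difference was -0.12, beside -0.03 over all genes. The core genes PSMA7, PSMB3, PSMB4 and PSMB6, with PSMD4 and PSME2, had the lower response in NCI-H526, and PSME3 and PSME4 the higher. PSMB3 differed most, at -0.72 ± 0.09 (SE, adjusted p = 0.00015, and 0.43 in a single fit of all 16 libraries). PSMD4 differed by -0.41 ± 0.09 (adjusted p = 0.0064) and PSME3 by 0.31 ± 0.08 (adjusted p = 0.017). The PSME3 difference was lost when the first or second DMSO library or the second treated library of NCI-H526 was left out, at adjusted p of 0.1, 0.083 and 0.078, or the first DMSO library of NCI-H1048, at 0.056. PSME1 differed by -0.30 ± 0.11 and did not pass (adjusted p = 0.061).

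**Figure D5:**
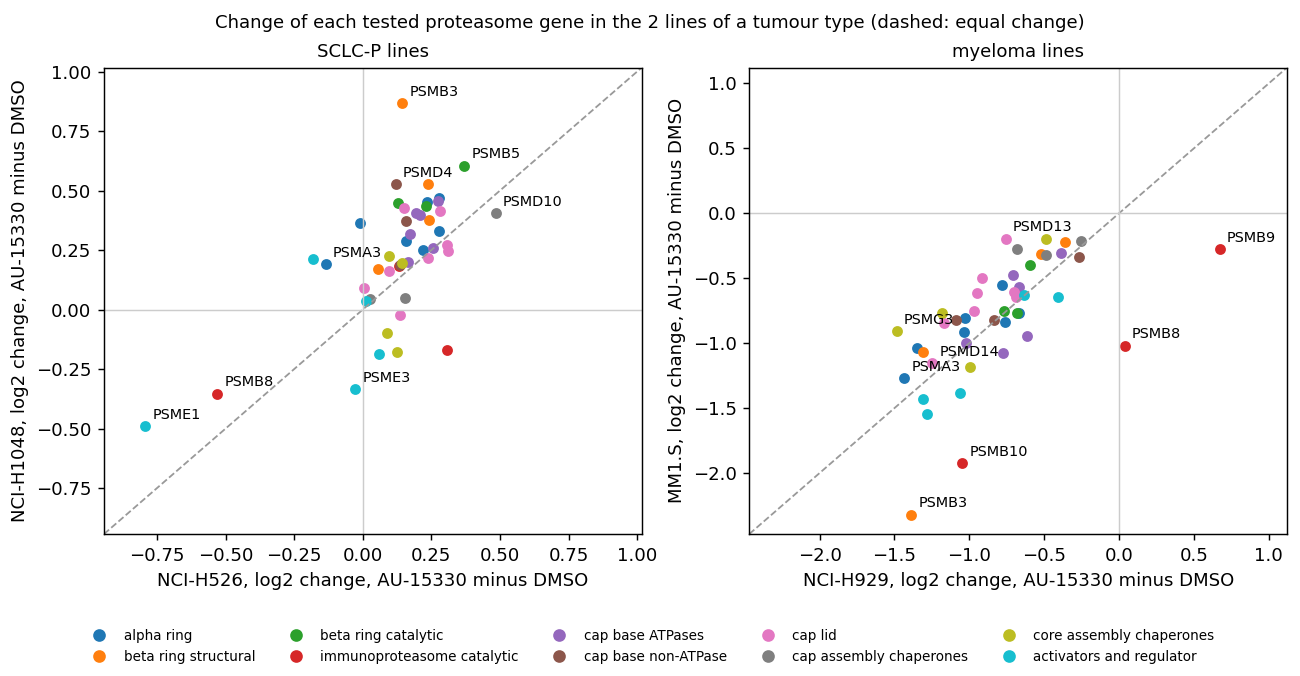
Each point is a tested proteasome gene, placed by its log2 change with AU-15330 in the lines of a tumour type (left NCI-H526 on x and NCI-H1048 on y, right NCI-H929 on x and MM1.S on y), coloured by role, with a dashed line of equal change. PSMB3 lies farthest above the line in the SCLC-P panel, at 0.14 and 0.87, and in the myeloma panel PSMB10 and PSMB3 lie lowest, at -1.92 and -2.32 in MM1.S.

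Between the myeloma lines, 27 members did not differ past the test. A more negative change in NCI-H929 was found for 13 and a less negative one for 6. Of all genes, 20.1% had lower and 28.1% higher differences, so the count of 6 was below its share. The median difference was -0.09, beside 0.07 over all genes. The more negative changes in NCI-H929 were those of 5 lid genes, 4 assembly genes, 3 core genes and PSMD1. PSMD13 differed by -0.56 ± 0.10 (SE, adjusted p = 0.0008) and PSMD7 by -0.42 ± 0.08 (adjusted p = 0.0017). PSMB10 differed the other way, by 0.88 ± 0.15 (adjusted p = 0.00078), as did PSMC3, PSMC5, PSME2, PSME3 and PSME4. The catalytic genes PSMB5, PSMB6 and PSMB7 did not pass, at differences of -0.20 ± 0.12, 0.09 ± 0.08 and -0.02 ± 0.07 (SE). Across the 46 members the changes correlated at a Spearman rho of 0.742 between the myeloma lines, 0.584 between the SCLC-P lines and 0.156 to 0.262 between lines of different tumour types. These correlations describe genes measured in the same libraries and carry no test.

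The response of the SCLC-P lines minus that of the myeloma lines was positive and past the test for 44 of the 46 members and negative for 0, where 41.5% of all genes were called positive and 34.6% negative. At an unadjusted p under 0.05 and by limma-voom the negative count was also 0. The median difference was 1.02 on the log2 scale, beside 0.05 over all genes. The 44 were all 14 core genes (differences of 0.68 to 2.36), all 17 cap genes (0.53 to 1.49), all 7 assembly genes (0.33 to 1.36), all 5 activators and regulators (0.46 to 1.24) and PSMB10 (1.56). PSME3 differed by 1.23 ± 0.05 (SE, adjusted p = 5.1e-12), PSMD14 by 1.49 ± 0.07 (adjusted p = 2.6e-11) and PSMD1 by 1.12 ± 0.06 (adjusted p = 5e-11). The difference of PSMB3, 2.36 ± 0.43, rests in part on the second treated library of MM1.S. PSMB8 and PSMB9 did not pass, at 0.05 ± 0.31 and -0.04 ± 0.31 (SE). The RNA selection of MM1.S, the medium of NCI-H929 and the treatment time, if it differed, cannot be told apart from the lines.

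The genes that work beside the proteasome were taken from lists outside the symbol rule. Of 13 proteasome partners (subunits, chaperones, receptors, deubiquitinases and ligases that bind it), 0 were higher and 12 lower in NCI-H929, 0 and 9 in MM1.S, 2 and 1 in NCI-H526, and 4 and 1 in NCI-H1048. The shares of all genes called higher and lower were 38.4% and 37.6% in NCI-H929, 33.9% and 40.2% in MM1.S, 29% and 29.8% in NCI-H526, and 16.9% and 18.2% in NCI-H1048, so that 2 of 13 higher in NCI-H526 was below the background. UCHL5, a deubiquitinase of the cap, fell from 163 and 164 to 41.6 and 47.9 in NCI-H929 and from 101 and 107 to 51.5 and 54.0 in MM1.S, by 1.86 and 0.97. ADRM1, the ubiquitin receptor that binds UCHL5, fell by 1.08 and 1.03 there. SEM1, a small lid subunit with no PSM symbol, rose by 0.22 in NCI-H526 and 0.64 in NCI-H1048. Its changes in NCI-H929 and MM1.S, -0.31 and -0.30, were -0.090 and -0.065 and did not pass under total-count scaling. POMP, the maturation factor of the core, fell by 1.05 and 0.82 in the myeloma lines, and its change of 0.33 in NCI-H1048 (adjusted p = 0.017) was lost without the first DMSO library (adjusted p = 0.41). UBE3C, a ligase that rides on the proteasome, was lower in all 4 lines, with changes of -0.55 in NCI-H526, -0.25 in NCI-H1048, -0.86 in NCI-H929 and -0.84 in MM1.S. Its NCI-H1048 call (adjusted p = 0.043) was lost without the first or second DMSO library, at 0.36 and 0.22.

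NFE2L1 is the transcription factor that raises proteasome genes when the proteasome is blocked, and DDI2 and VCP help release it. Of 16 genes of its pathway and of substrate shuttles, 1 was higher and 12 lower in NCI-H929, 2 and 10 in MM1.S, 4 and 4 in NCI-H526, and 2 and 3 in NCI-H1048. Against 29% higher and 29.8% lower of all genes in NCI-H526 and 16.9% and 18.2% in NCI-H1048, the SCLC-P counts were near the background, and the lower counts in the myeloma lines stood against 37.6% and 40.2%. UBQLN2, a shuttle named after its values were seen, was the gene higher in NCI-H929, by 1.00, and it also rose in MM1.S, by 0.42. The NFE2L1 transcript itself went from 246 and 246 to 206 and 207 in NCI-H526, a change of -0.26 that passed. It did not pass in the other lines, at -0.20 in NCI-H1048, -0.07 in NCI-H929 and -0.28 in MM1.S, though in NCI-H929 it was 0.160 and passed under quantile normalization. DDI2 fell by 0.60 in NCI-H1048, 1.23 in NCI-H929 and 1.03 in MM1.S. In NCI-H526 its change was 0.17 (adjusted p = 0.0044, and 0.06 and 0.05 without the first and second DMSO library). VCP fell by 0.83 and 1.08 in the myeloma lines. MAFG, a partner of NFE2L1 on DNA, fell by 0.29 in NCI-H526, 0.89 in NCI-H929 and 1.19 in MM1.S.

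The VHL ligase is among the E3 ligases that degraders recruit. Of 9 genes of the CUL2-VHL ligase and its activation, 0 were higher and 7 lower in NCI-H929, 1 and 6 in MM1.S, 3 and 0 in NCI-H526, and 2 and 0 in NCI-H1048. The counts higher in the SCLC-P lines were near the background of 29% and 16.9% of all genes, and the lower counts in the myeloma lines stood against 37.6% and 40.2%. ELOC fell by 0.74 in NCI-H929 and 0.59 in MM1.S, and CAND1 by 0.57 and 0.53. VHL itself was the gene higher in MM1.S, by 0.34, and was named after its values were seen.

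MHC class I genes present the peptides that proteasomes make. Of the genes of class I processing, 12 of 14 were lower and 0 higher in NCI-H526, 1 of 13 lower and 1 higher in NCI-H1048, 9 lower and 2 higher of 14 in NCI-H929, and 9 lower and 2 higher of 13 in MM1.S. Of all genes, 29.8%, 18.2%, 37.6% and 40.2% were called lower in that order of lines, so the count lower in NCI-H1048 was below the background. The shares called higher were 29%, 16.9%, 38.4% and 33.9%, so the counts higher were below the background in every line. NLRC5, the activator of class I genes, was lower in all 4 lines, with changes of -0.73 in NCI-H526, -0.49 in NCI-H1048, -0.82 in NCI-H929 and -1.82 in MM1.S, and its NCI-H1048 call was lost without the first or second DMSO library (adjusted p = 0.088 and 0.055). CALR, a loading chaperone, was also lower in 3 lines, with changes of -0.40 in NCI-H526, -1.62 in NCI-H929 and -1.84 in MM1.S. HLA-B fell by 1.06, 0.64 and 1.26 in the same lines and lies in the same MHC region as PSMB8 and PSMB9.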

How the data were processed

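RNA-seq of 16 libraries (4 lines, DMSO or AU-15330, 2 libraries each) was read from the deposited table. The authors trimmed reads and quantified transcripts with kallisto against hg38, and per the labels edgeR, limma and FastQC were also used. Versions are not given in the labels. The deposited columns are named CPM, but their totals differ between libraries (0.829 M to 1.19 M), so the values were treated as a normalized signal made by the authors, with CPM of an effective library size as an inference. The design had assumed CPM, and the test is the one planned for it. Between 74.8% and 80.1% of low values (at most 20 steps) lay within 0.1 step of a whole number of steps, so no reads were recovered, depth (12 to 43 M reads) is an estimate, and no counting intervals are given.

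Values were tested as log2(value + 0.5) with limma 3.58.1 (R 4.3.3) with a variance trend, per line, over genes with a mean of at least 1 over the 4 libraries, and p-values were adjusted by the Benjamini-Hochberg method over all genes tested, with a threshold of 0.05. Fold changes are on that log2 scale, which understates low genes. Differences between lines are interaction contrasts in a fit of the lines concerned. All p-values are two-sided. The fits of the single lines and the NCI-H526 minus NCI-H1048 contrast were tried on simulated data with a fixed spread between libraries. The NCI-H929 minus MM1.S and SCLC-P minus myeloma contrasts were not tried in this way. Gene positions are from GENCODE release 44 (35444 identifiers matched), and levels per kilobase use the reference transcript.

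The members, roles and lists were chosen with earlier results of these data known. Values per library are given for the catalytic, immunoproteasome and interferon-induced activator genes, the 3 highest and 3 lowest called members per line, the 3 members with the smallest p per difference, and members called alike in all 4 lines. Others are given as examples, up to 4 per role and line by p. Alternatives were the pseudocount, filter, scaling, tool, shared fit, replicate block and leaving out each library. RefSeq promoter windows were searched on both strands, and no entry was matched for PSMA7, PSMB1, PSMB6, PSMB7, PSMD4 and PSMG3. Results of a further gene list are not reported here.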

Additional observations from a re-analysis of the deposited data

Results flagged for a closer look

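The responses of the named members below differed between lines by the interaction test. Between the SCLC-P lines (NCI-H526 minus NCI-H1048, log2), PSMB3 differed by -0.72, PSMD4 by -0.41 and PSME3 by 0.31. The counts of members that differed between these lines were below the shares of all genes. Between the myeloma lines (NCI-H929 minus MM1.S), PSMB10 differed by 0.88, PSMD13 by -0.56 and PSMD7 by -0.42, the last 2 with the larger fall in NCI-H929. Between the tumour types (SCLC-P minus myeloma), PSMD14 differed by 1.49, PSME3 by 1.23 and PSMD1 by 1.12. Groups of 2 libraries were too small to look for single libraries that stand apart.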

How the results depend on the processing

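The median change of the members kept its sign under every alternative run, with NCI-H526 at 0.12 to 0.20, NCI-H1048 at 0.20 to 0.28, NCI-H929 at -0.83 to -0.55 and MM1.S at -0.78 to -0.53. Total-count scaling moved the median of all genes to 0.25 in NCI-H929 and 0.19 in MM1.S. The share of calls that were higher moved from 50.5% to 62.7% and from 45.7% to 60.0%. This scaling divides each library by a single factor and so moves all genes nearly alike. The members' median less that of all genes could therefore hardly move, and was -0.80 and -0.72, against -0.81 and -0.74 as reported. Under quantile normalization that difference was -0.59 in NCI-H929 and -0.62 in MM1.S. For SCLC-P minus myeloma the share of calls that were higher moved from 54.5% to 41.4% under total-count scaling. For NCI-H929 minus MM1.S it moved from 58.3% to 47.9% under quantile normalization. With 2 libraries per group the SCLC-P counts are the least certain, and their changes are small. The cause of the moves below was not tested.

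Of the 29 members higher in NCI-H526, 17 were called in a fit of all 16 libraries, 14 with no variance trend, and 0 at 1.5-fold or more; leaving out a library gave 19 to 35. The 2 lower became 1 with no filter, quantile normalization, the fit of all 16 or the 1.5-fold minimum, 4 with the replicate block, and 2 to 5 without a library. Of the 23 higher in NCI-H1048, 14 were called with no filter and 2 at 1.5-fold; leaving out a library gave 5 to 29. The 2 lower became 0 at 1.5-fold and 1 to 4 without a library. The count higher in NCI-H929, 0, became 1 under total-count scaling, limma-voom or the replicate block and 0 to 1 without a library. For NCI-H526 minus NCI-H1048, the 2 higher became 1 (filter at 5, no filter, median-ratio, no trend, limma-voom) and 0 to 3 without a library, and the 6 lower became 3 under total-count scaling, 2 with no trend and 2 to 11 without a library. For NCI-H929 minus MM1.S, the 6 higher became 3 under median-ratio rescaling and 4 to 8 without a library, and the 13 lower became 7 with no trend and 7 to 13 without a library. The counts lower in NCI-H929 and MM1.S, 44 and 45, were 42 and 34 under total-count scaling, 41 and 37 under quantile normalization, 36 and 31 at 1.5-fold or more, and 43 to 44 and 41 to 46 when a library was left out, and the positive count for SCLC-P minus myeloma was 44 when a library was left out.

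Reversals were these. Under quantile normalization the NCI-H929 changes became 0.050 for PSMB4, 0.076 for PSMD4, 0.140 for SMARCA4, 0.221 for PBRM1 and 0.160 for NFE2L1, and that of PSMB4 in MM1.S 0.030. Under total-count scaling those of SMARCA4, PBRM1 and NFE2L1 in NCI-H929 became 0.084, 0.211 and 0.155, and in MM1.S PSMB4 became 0.014, PSMD13 0.040, PSMD5 0.020 and PSMG2 0.033. Without the first treated library of NCI-H526, PSMA7 became 0.088 there and without the second -0.111, and the PSMD2 difference between the myeloma lines was 0.182 without the second treated library of MM1.S and -0.206 without the first. The replicate numbers were not taken as pairs: deviations of same-numbered libraries correlated at 0.01, 0.22, -0.01 and -0.14 in NCI-H526, NCI-H1048, NCI-H929 and MM1.S. With the number as a replicate block the counts higher and lower were 31 and 4, 24 and 3, 1 and 44, and 0 and 44. A crossed pairing in MM1.S, chosen after seeing the data, gave 0 higher and 45 lower.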
